A study of Homo sapiens with 3 samples.

Results

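The cell cycle and proliferation genes described here were a list of 44 genes, taken by symbol from the 43316 genes named on the array and sorted by role into 11 G1 drivers, 6 inhibitors of cyclin-dependent kinases, 9 S-phase genes and 18 genes of G2 and mitosis. Where a gene had several probes, the probe with the brightest mean signal over the 3 arrays stood for it. RNA came from H1975 (NCI-H1975), an osimertinib-sensitive non-small cell lung cancer line whose EGFR carries both an activating mutation and a gatekeeper mutation, and from OR1 and OR2, which were derived from it separately by selection in osimertinib at rising doses that reached 2 μmol/L. The drug is an inhibitor of mutant EGFR, and whether it was in the medium when RNA was collected is not given in the sources used here. Each line was 1 sample on 1 array, so the ratios between lines have no replicate check and no p-value, and each resistant line is a single selected line.

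A cell passes through G1 when D- and E-type cyclins activate their kinases and release E2F factors from the retinoblastoma protein, and small inhibitor proteins hold those kinases back. E2F factors switch on genes for DNA replication at the start of S phase, and a second wave of transcription, driven by the MuvB complex with B-MYB and FOXM1, supplies the cyclins, kinases and spindle proteins of mitosis. Growth factor receptors such as EGFR feed into this circuit mainly through MYC and the D cyclins.

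Signals were compared as scaled intensities, meaning the scanner's processed signal divided by the 75th percentile of its array and brought back to a common scale; they compare 1 gene between lines, never 1 gene with another. A gene was called up at a ratio to H1975 of 2 or more and down at 0.5 or less, with the brighter side well above background. From 45.6 to 45.9% of the 58200 probes were well above background on each array, and no spot was saturated. The scanner software's spot error put a technical SD of 0.20 to 0.25 on each member's log2 ratio, which covers the array measurement and not the cells. Of 10 epithelial and lung markers, 9 were well above background in every line, and the scaled intensities of the list summed to 380231 for H1975, 163670 for OR1 and 164309 for OR2. Such sums mix genes and follow mostly the brightest probes, here KRT19, KRT7 and KRT18, which read 144774, 126990 and 72434 in H1975. Of these 9, 6 read below H1975 in both lines and 0 above it in both, and 4 were called down in both, beside 6.32% of all genes. The 4 were EPCAM, an epithelial adhesion protein, at 0.037 of H1975 in OR1 and 0.0725 in OR2, CDH1 (0.020 and 0.080), KRT7 (0.164 and 0.170) and KRT19 (0.463 and 0.492). Others were flat or mixed, such as the keratin KRT8 at 1.12 and 0.96, and NKX2-1, a lung lineage factor, at 0.25 and 1.36. Of 8 fibroblast markers, the lines H1975, OR1 and OR2 had 3, 3 and 1 well above background, with sums of 669, 760 and 104. These were COL1A1 in every line, COL1A2 in H1975 and OR1, FAP in H1975 only and LUM in OR1 only. In H1975, OR1 and OR2, COL1A1 read 445, 645 and 81.6, COL1A2 193, 31.2 and 5.3, and LUM 2.4, 65.8 and 2.4. Of 3 immune markers with a probe, 2 were well above background in each line, with sums of 304, 254 and 376. COL3A1, DCN, PDGFRA and THY1 of the fibroblast markers, CD3E of the immune markers and SFTPB, a surfactant protein, were near background in every line. The part of these markers in the results was not tested.

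The mitotic and replication genes read mostly lower in both resistant lines, by amounts smaller than the 2-fold limit, whereas individual CDK inhibitors moved far and in opposite directions. CDKN1C (p57) was 6.04-fold higher in OR1 and 6.13-fold higher in OR2 than in H1975, and CDKN2C (p18) was 3.05-fold and 3.28-fold higher. CDKN1A (p21) stood at 0.229 of H1975 in OR1 and 0.362 in OR2, and MCM7, a subunit of the replicative helicase, at 0.422 and 0.466. Of the 43 members well above background, 29 (67.4%) read lower than H1975 in both lines and 7 (16.3%) higher in both, beside 41.8% and 37.4% of all genes compared.

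In OR1, 3 members were called up, or 6.98% of the 43, where 9.17% of all 21869 genes compared were, and 5 were called down, or 11.6%, where 9.58% of all genes were. In OR2, 2 members (4.65%) were called up and 4 (9.30%) down, beside 7.72% and 8.70% of all genes. In both lines together, 2 members were up and 2 were down, or 4.65% each way, beside 5.09% and 6.32% of all genes. These shares were near the background in each direction, so the counts of calls alone were no result about the list. In bulk RNA, fewer cycling cells and less of a transcript per cell cannot be told apart.

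**Figure D1:**
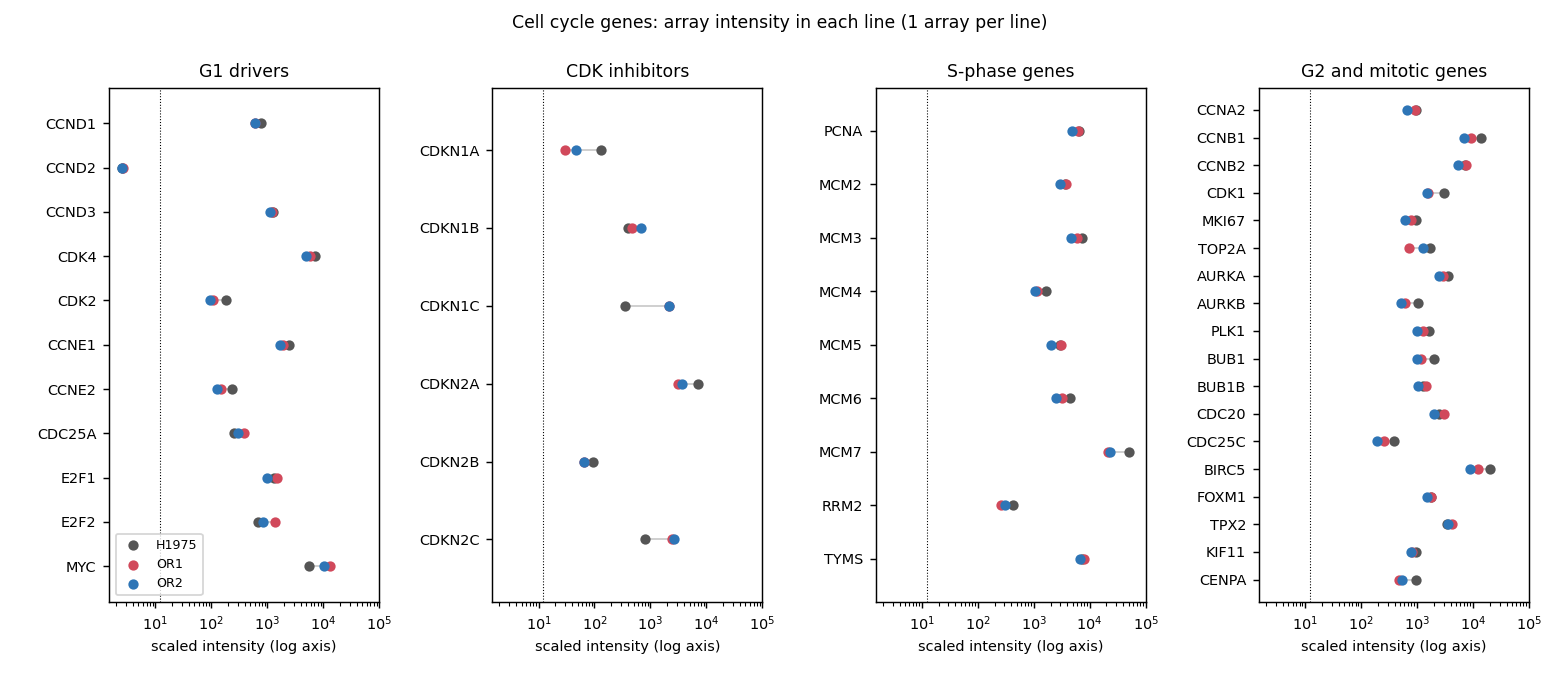
Scaled intensity (x axis, log scale) of each member, by role, on the H1975, OR1 and OR2 arrays, 1 point per array. The dotted line is the mean over arrays of the lowest scaled intensity that was well above background, which was 11.9 to 12.6. Only CCND2 lies under it, and for most S-phase and mitotic genes the H1975 point is the highest or close to it.

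Promoters were read for short motifs that the role groups share. The genes were chosen by known role, and those roles are tied to E2F and MuvB, so the shares below describe the groups and not the 3 lines. RefSeq (GRCh38.p14) gave a window from 250 bases before to 50 bases from the start for 32 of the 44 members, and the first start listed for a gene was taken. A total of 3 short motifs were sought on both strands: the cell cycle genes homology region (CHR), TTTGAA, which MuvB contacts in late cell cycle genes, the CCAAT box bound by NF-Y, and 4 forms of the E2F site, TTTCCCGC, TTTCGCGC, TTTGCCGC and TTTGGCGC. Of 14 promoters of G2 and mitotic members, 9 (64.3%) held the CHR letters, 12 (85.7%) a CCAAT box and 8 (57.1%) both, where 15.4%, 35.7% and 6.08% of all 27305 promoters did. Of 7 S-phase promoters, 6 (85.7%) held an E2F form, where 3.33% of all promoters did. None of the 5 inhibitor promoters held the CHR letters or an E2F form, and 1 held a CCAAT box. CDKN1C had no window and is not among these 5. When every listed start of a gene was searched, the CHR share was 10 of 14 for G2 and mitotic genes and 18.2% for all genes. The windows below are shown for some called members, with MCM6 and CDC20 added as an S-phase and a mitotic gene with matches whose own ratios were smaller. They were chosen with their values known, so they illustrate the motifs and are no sample of the list. AURKB, with 1 CCAAT box and no other match, and CDKN2A, with no match, were called members left out. MYC, CDKN1C and BIRC5 were called too, but they had no window, so their promoters were not read. Each window shown runs from 150 bases before to 25 bases from the start, on the strand of the gene, with every motif match in capitals.

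The S-phase pair was MCM7, at chr7:100101373-100101547 on the minus strand, and MCM6, at chr2:135876419-135876593 on the minus strand, both in GRCh38.p14. MCM7 has an E2F form at −9 that overlaps a CCAAT box at −2, with further CCAAT boxes at −95 and −51. MCM6 has E2F forms at −148, −90 and −86, of which the last pair overlap, and CCAAT boxes at −100 and −58.
MCM7: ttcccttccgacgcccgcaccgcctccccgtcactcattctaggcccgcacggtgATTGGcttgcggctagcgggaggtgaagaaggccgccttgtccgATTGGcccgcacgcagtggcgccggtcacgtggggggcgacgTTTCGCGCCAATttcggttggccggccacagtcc
MCM6: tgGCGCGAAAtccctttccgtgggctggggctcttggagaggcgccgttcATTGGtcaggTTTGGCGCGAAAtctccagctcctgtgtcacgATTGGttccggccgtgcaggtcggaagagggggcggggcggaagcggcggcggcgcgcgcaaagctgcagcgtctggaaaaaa

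The mitotic genes were CENPA, at chr2:26785906-26786080 on the plus strand, CDC20, at chr1:43358831-43359005 on the plus strand, and TOP2A, at chr17:40417872-40418046 on the minus strand. CENPA holds a CCAAT box at −130 and the CHR letters at −18. CDC20 holds CCAAT boxes at −100 and −55 with the CHR letters between them at −65. TOP2A holds CCAAT boxes at −93 and −53 in this stretch, and further upstream in the window searched it holds the CHR letters at −194 and −151 and CCAAT boxes at −244 and −160.
CENPA: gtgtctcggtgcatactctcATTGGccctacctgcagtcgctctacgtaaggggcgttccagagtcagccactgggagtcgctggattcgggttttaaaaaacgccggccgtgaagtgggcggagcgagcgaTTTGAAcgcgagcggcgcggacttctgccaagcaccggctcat
CDC20: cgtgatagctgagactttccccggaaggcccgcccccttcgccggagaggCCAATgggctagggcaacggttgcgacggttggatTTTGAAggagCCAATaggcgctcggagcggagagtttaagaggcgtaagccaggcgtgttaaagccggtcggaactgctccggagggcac
TOP2A: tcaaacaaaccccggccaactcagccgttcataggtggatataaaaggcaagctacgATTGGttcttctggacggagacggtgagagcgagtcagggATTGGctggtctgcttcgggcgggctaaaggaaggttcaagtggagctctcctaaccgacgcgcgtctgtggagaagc

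The inhibitor genes were CDKN2C, at chr1:50960595-50960769 on the plus strand, and CDKN1A, at chr6:36678564-36678738 on the plus strand. They were called in opposite directions, and neither stretch holds any of the letters sought.
CDKN2C: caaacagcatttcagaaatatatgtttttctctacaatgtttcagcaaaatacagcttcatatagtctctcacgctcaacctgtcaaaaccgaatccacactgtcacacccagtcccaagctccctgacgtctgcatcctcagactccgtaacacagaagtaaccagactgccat
CDKN1A: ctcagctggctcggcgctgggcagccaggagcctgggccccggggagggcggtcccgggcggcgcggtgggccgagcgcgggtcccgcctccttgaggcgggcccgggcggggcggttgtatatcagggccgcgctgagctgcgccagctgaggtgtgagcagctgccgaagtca

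Among the G1 drivers, MYC, the transcription factor that couples growth signals to cell cycle entry, was the single member called. It read 5508 on the H1975 array, 13292 on that of OR1 and 10434 on that of OR2, from a probe at chr8:128753268-128753327 (hg19). Both resistant lines were above H1975, OR1 by 2.41-fold and OR2 by 1.89-fold, so that MYC passed the limit in OR1 only under this scaling. The probe was printed 10 times on each array, and the spots averaged 5511 ± 210 (SD), 13298 ± 421 and 10436 ± 205. The 3 sets of spots did not overlap, which shows the precision of 1 array and not the spread between cultures. A second MYC probe stayed near background in all lines, and with spike-in scaling the log2 ratio of the first in OR1 was 0.67, under the limit. With quantile normalization MYC was called in OR2 too, at a log2 ratio of 1.12.

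The activators of the E2F pathway stood higher in OR1 than in OR2 under this scaling. E2F2, an activating E2F factor, read 691, 1375 and 827 in H1975, OR1 and OR2, just under the limit in OR1 at 1.99-fold and at 1.20-fold in OR2. E2F1 read 1313, 1512 and 997, or 1.15 of H1975 in OR1 and 0.76 in OR2. CDC25A, the phosphatase that activates CDK2, was at 1.45 and 1.17 of H1975. With spike-in scaling OR1 stood at 1.05 of OR2 for E2F2, 0.95 for E2F1 and 0.78 for CDC25A, so the order depended on the scaling.

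The cyclins and kinases of G1 read at or below H1975 in both lines. CCND1 (cyclin D1) read 761, 599 and 618, and CCND3 (cyclin D3) read 1272, 1221 and 1126. CDK4, their partner kinase, read 7186, 5758 and 4970, or 0.80 of H1975 in OR1 and 0.69 in OR2. CDK2, the partner of E-type cyclins, stood at 0.57 and 0.52, the lowest ratios of the group in either line. CCNE1 and CCNE2, which encode those cyclins, stood at 0.78 and 0.64 in OR1 and at 0.68 and 0.54 in OR2. None of these 6 genes was called. CCND2 (cyclin D2) read 2.5 in H1975 and 2.6 in OR1 and OR2, was nowhere well above background and has no ratio here. The group median log2 ratio was −0.19 in OR1 and −0.35 in OR2, beside 0.04 and −0.06 for all genes.

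The CDK inhibitors held the largest changes of the list, and 2 were called up and 1 down in both lines. CDKN1C, of the Cip/Kip family and known as a brake on proliferation in embryonic tissue, read 349 in H1975, 2107 in OR1 and 2140 in OR2 (probe at chr11:2904903-2904962, hg19). CDKN2C, of the INK4 family that blocks CDK4 and CDK6, read 795, 2426 and 2612 (chr1:51439963-51440022). For both genes the resistant lines were close to each other under this scaling, with OR1 at 0.98 and 0.93 of OR2, and well above H1975. With spike-in scaling OR1 stood at 0.62 and 0.58 of OR2, and at 3.98 and 2.01 of H1975. Both genes kept a ratio to H1975 of 2 or more in both lines under all 12 settings.

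CDKN1A, the p53 target that halts the cycle after DNA damage, read 130 in H1975, 29.8 in OR1 and 47.1 in OR2 (chr6:36652178-36652237, hg19). OR1 and OR2 were both far below H1975, and all 3 readings were well above background. Under normexp background correction with an offset of 50, the log2 ratios were −0.95 and −0.80 in place of −2.13 and −1.47, and neither passed the limit. CDKN2A, which encodes p16 and ARF, read 7169, 3117 and 3736 (chr9:21968039-21968098), or 0.435 of H1975 in OR1 and 0.521 in OR2. It was called down in OR1, and OR2 was just above the limit. Its other probe gave 0.427 and 0.574. CDKN2B, its neighbour encoding p15, read 94.1, 65.0 and 65.9. CDKN1B (p27) read 393, 463 and 670, or 1.18 and 1.71 of H1975, but a second probe gave 1.39 and 1.1, so the order of OR1 and OR2 depended on the probe. The group median log2 ratio, −0.15 in OR1 and 0.13 in OR2, describes none of these genes well, since 3 of 6 lay on each side of 1 in each line.

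**Figure D2:**
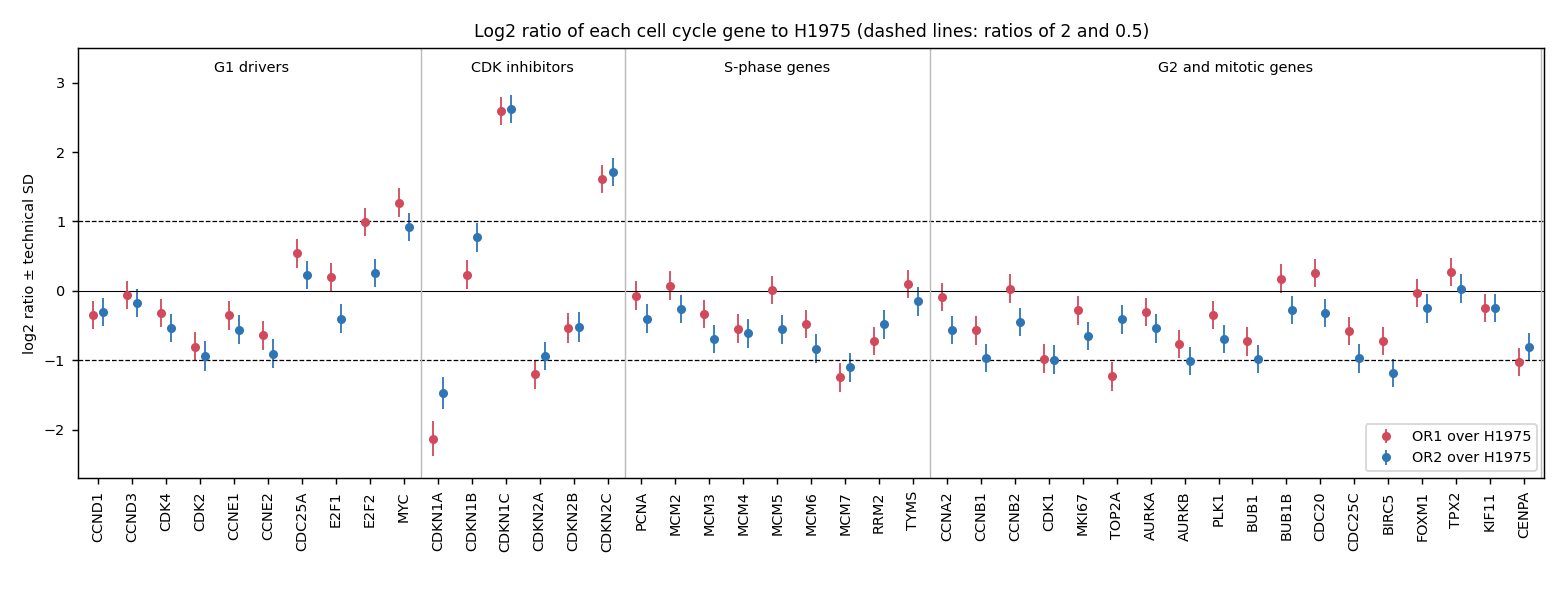
Log2 ratio to H1975 (y axis) of each member (x axis) in OR1 and OR2, by role. Bars are 1 technical SD from the scanner software's spot error, and dashed lines mark ratios of 0.5 and 2. CDKN1C and CDKN2C lie above the upper dashed line, and CDKN1A and MCM7 below the lower one, in both OR1 and OR2.

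Of the S-phase genes, MCM7 was called down in both lines and no other member was called. MCM7 read 49803 in H1975, 20995 in OR1 and 23193 in OR2 (probe at chr7:99690520-99690579, hg19), and its other probe gave ratios of 0.392 and 0.488. With quantile normalization the log2 ratio in OR2 was −0.90 in place of −1.10, and the call was lost there. The other subunits of the same helicase differed less. MCM6 stood at 0.72 of H1975 in OR1 and 0.56 in OR2, MCM4 at 0.69 and 0.65, and MCM3 at 0.79 and 0.62. MCM2, at 1.05 and 0.83, and MCM5, at 1.01 and 0.68, were near H1975 in OR1. The 6 helicase genes were therefore not lowered by a common factor.

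MCM7 lies on chromosome 7, where genes read lower as a whole. For the 949 genes of that chromosome, log2 ratios had their median at −0.55 (OR1) and −0.36 (OR2), beside 0.03 and −0.05 for all 18550 genes with a position. The 20 genes nearest to MCM7 had medians of −0.86 and −0.42, and the gene's own values were −1.25 and −1.10. DNA copy number was not analysed here, and its part in the result was not tested. The 20 genes around CDKN1C had medians of 0.42 and 0.28, and those around CDKN2C 0.29 and 0.15, beside gene values from 1.61 to 2.62. Around CDKN2A the medians were −0.37 and −0.52, beside −1.20 and −0.94 for the gene. Around the called mitotic genes they were −0.34 and −0.21 (TOP2A), −0.30 and −0.57 (BIRC5), −0.14 and −0.29 (CENPA), and 0.13 and −0.01 (AURKB). Around MYC they were 0.30 and 0.05, and around CDKN1A 0.39 and 0.11. The part of these surroundings in the calls was not tested.

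The remaining S-phase genes were enzymes and the replication clamp. RRM2, the small subunit of ribonucleotide reductase, read 424, 257 and 304, or 0.61 and 0.72 of H1975. PCNA, the clamp that holds DNA polymerases on the template, read 6486, 6188 and 4917, or 0.95 and 0.76. TYMS, which makes thymidylate, read 7402, 7930 and 6669, within 1 technical SD of H1975 in both lines. The group median log2 ratio was −0.34 in OR1 and −0.56 in OR2.

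Of the 18 genes of G2 and mitosis, 14 read below H1975 in both lines and 1, TPX2, above it, while 2 were called in each line and none in both. TOP2A, which untangles replicated DNA, read 1707, 727 and 1285 in H1975, OR1 and OR2 (probe at chr17:38545709-38545768, hg19), and was down in OR1 only, at 0.426 against 0.75 in OR2. CENPA, the histone variant that marks centromeres, read 963, 473 and 549 (chr2:27016914-27016973), or 0.49 and 0.57. In these 2 genes OR1 was the lowest of the 3 lines.

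BIRC5 (survivin), a subunit of the chromosomal passenger complex, read 20053, 12185 and 8811 (chr17:76220720-76220779), or 0.61 in OR1 and 0.439 in OR2. Its 10 spots averaged 20071 ± 918 (SD), 12202 ± 673 and 8819 ± 393, with no overlap between arrays. AURKB, the kinase of the same complex, read 1033, 606 and 513, or 0.59 and 0.497. Both genes were called down in OR2 only, where AURKB lay at the limit itself. With quantile normalization both fell short of it in OR2, at log2 ratios of −0.97 for BIRC5 and −0.96 for AURKB, as did CENPA in OR1 at −0.98.

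Several mitotic genes lay just outside the limit. CDK1, the kinase that drives entry into mitosis, read 3054, 1555 and 1539, or 0.509 and 0.504 of H1975, and its 10 spots averaged 3055 ± 83.8 (SD), 1556 ± 75 and 1541 ± 83.7. A dimmer CDK1 probe gave 0.71 and 0.41. CCNB1 (cyclin B1), its partner, read 13806, 9313 and 7085, or 0.675 and 0.513. BUB1, a spindle checkpoint kinase, and CDC25C, the phosphatase that activates CDK1, stood at 0.508 and 0.509 of H1975 in OR2 and at 0.60 and 0.67 in OR1. The step from called to not called was therefore small in these genes.

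MKI67, which encodes the proliferation marker Ki-67, read 954, 786 and 607, or 0.82 and 0.64 of H1975, and its dimmer probes gave 0.79 with 0.86 and 0.81 with 0.64. AURKA and PLK1, kinases of the centrosome and spindle, were at 0.81 and 0.79 in OR1 and at 0.69 and 0.62 in OR2. FOXM1, an activator of the mitotic genes, was at 0.98 and 0.84, and KIF11, a spindle motor, was at 0.84 in each line. CCNA2 (cyclin A2) was at 0.94 and 0.68. CCNB2 (cyclin B2), BUB1B and CDC20, the last being the activator of the anaphase-promoting complex, were above H1975 in OR1, at 1.02, 1.13 and 1.20, and below it in OR2, at 0.73, 0.83 and 0.80. TPX2, a spindle assembly factor, was at 1.21 and 1.02. The group median log2 ratio was −0.33 in OR1 and −0.61 in OR2.

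**Figure D3:**
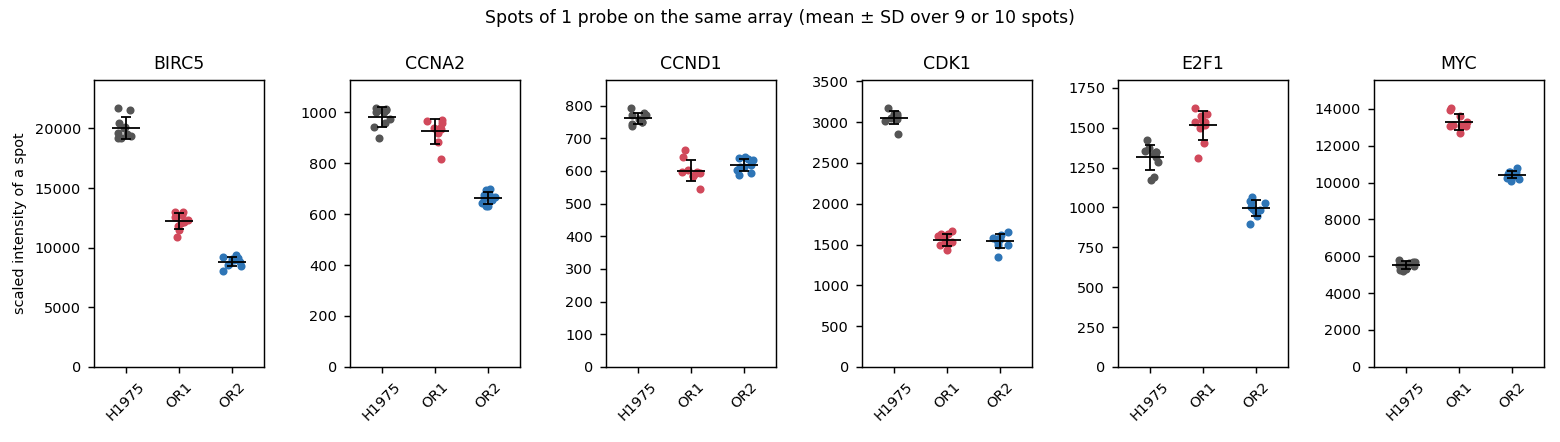
Scaled intensity of every usable spot of the 6 members printed 10 times, on the H1975, OR1 and OR2 arrays, with the mean as a horizontal line and the SD over spots as its error; 1 spot of CCNA2 in OR1 and 1 of CCND1 in H1975 were left out as outliers, and the y axis starts at 0. The spots of MYC and BIRC5 do not overlap between any lines, those of E2F1 overlap between H1975 and OR1, and CDK1 is nearly equal in OR1 and OR2.

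Of the 43 members measured, 25 had a smaller log2 gap between OR1 and OR2 than from either line to H1975, and 7 had a larger one. The gaps were not counted over all genes, so these numbers are no result about the list. No member was called between the resistant lines, a count near the background, since 2.89% of all genes were called higher and 2.48% lower in OR1. OR1 read above OR2 in 9 of 10 G1 drivers, 7 of 9 S-phase genes and 16 of 18 genes of G2 and mitosis, but in 0 of 6 inhibitors, beside 56.5% of all genes. The largest gaps were E2F2, at 1.66 of OR2 in OR1, and TOP2A, at 0.566. A larger gap means, by arithmetic, that the ratios to H1975 lay on opposite sides of 1. The 7 such members were E2F1, MCM2, MCM5, TYMS, CCNB2, BUB1B and CDC20, always with OR1 above and OR2 below. In none of them were both ratios more than 2 technical SDs from 1. The 2 comparisons with H1975 share its array, so their likeness is not a separate observation.

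Wider lists of the same pathways were read by the same rule, with the median of all genes at 0.04 in OR1 and −0.06 in OR2 on the log2 ratio scale. Of 53 other DNA replication and repair genes, none was up, 8 (15.1%) were down in OR1 and 14 (26.4%) in OR2, beside 9.58% and 8.70% of all genes, and the 8 were down in both lines, beside 6.32% of all genes. The list medians were −0.36 and −0.48. CDT1, which loads the MCM helicase, read 4040 in H1975, 1285 in OR1 and 861 in OR2. DSCC1 and RFC2, of the clamp loaders, read 572, 188 and 157 and 2766, 914 and 1061, and BRCA1, of homologous recombination, read 1113, 435 and 443. Of the 8 genes down in both lines, RFC2 and DBF4 (0.343 and 0.427 of H1975) lie on chromosome 7, like MCM7. The part of that chromosome in the share was not tested. The ratios of CDT1, DSCC1, RFC2 and BRCA1 lay below those of every S-phase member in both lines.

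Of 61 spindle and segregation genes measured, 4 (6.56%) were down in OR1, 5 (8.20%) in OR2 and 3 (4.92%) in both, at or below the 9.58%, 8.70% and 6.32% of all genes, so the calls were no result about this list. Its medians were −0.29 and −0.60. NEK2, a centrosome kinase, read 434, 179 and 174, ESPL1 (separase), which cleaves cohesin, 2828, 1312 and 979, and MELK 2684, 1324 and 1332. Of their promoters, 39 of 53 (73.6%) held the CHR letters. Among other G1 and pocket protein genes the medians were −0.09 and −0.10, with MXD4, an antagonist of MYC, up at 287, 653 and 654 and E2F7, a repressor E2F, down at 1363, 509 and 614. Of the p53-responsive arrest genes, with medians of 0.09 and 0.15, PHLDA3, an inhibitor of AKT, was down in both lines, at 1171, 96.8 and 169. Of these 20 genes, 3 (15.0%) were down in OR1 and 1 (5.00%) in OR2, beside 9.58% and 8.70% of all genes, and 2 (10.0%) were up in OR2, beside 7.72%; such small counts are near the background.

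**Figure D4:**
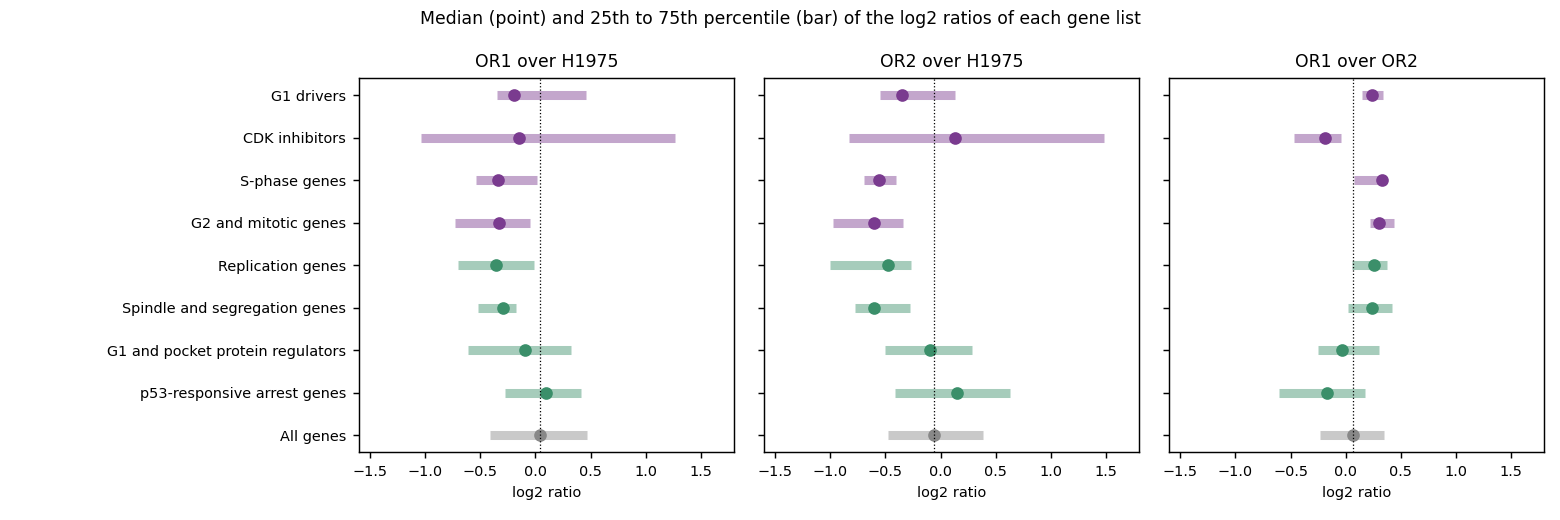
Median (point) and 25th to 75th percentile (bar) of log2 ratios (x axis) of OR1 over H1975, OR2 over H1975 and OR1 over OR2, for the 4 role groups, the 4 wider lists and all genes compared, whose median is the dotted line. Over H1975, the medians of the replication, spindle, S-phase and mitotic lists lie between −0.29 and −0.61, and all genes lie near 0.

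The level of all genes between arrays depended on the scaling. Spike-in RNA, whose amount per array is not given in the sources used here, was 1.30- to 1.38-fold brighter on the OR1 array than on the H1975 array and 0.914 to 1.05 times as bright on the OR2 array, and scaling on it shifted all genes in OR1 to a median of −0.56 on the log2 scale. Set against all genes under the same setting, the G2 and mitotic median lay from −0.41 to −0.31 in OR1 and from −0.57 to −0.51 in OR2 over 12 settings. The S-phase median lay from −0.41 to −0.31 and from −0.52 to −0.48. The direction of both groups relative to all genes was thus the same under every setting run, whereas that of the inhibitors was not, at −0.21 to 0.02 in OR1 and −0.07 to 0.18 in OR2. The order of OR1 and OR2 turned in G1, S-phase and mitotic genes under spike-in scaling without this adjustment, and with it OR1 lay above OR2 in those groups by 0.11 to 0.27.

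**Figure D5:**
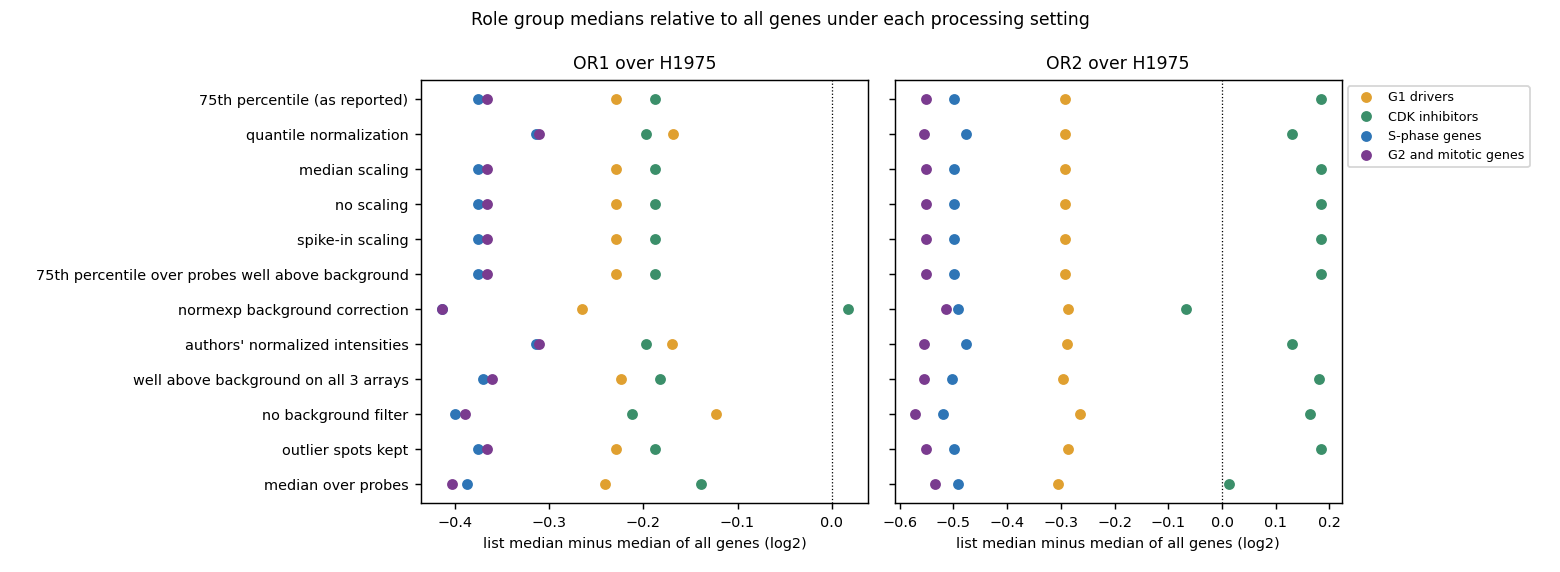
Median log2 ratio of each role group minus that of all genes (x axis), in OR1 and OR2, under the reported setting and 11 alternatives (rows). The G1, S-phase and mitotic groups stay left of 0 in every row, and the CDK inhibitors cross 0 under background correction by normexp. Rows that differ only by a constant per array have the same points by arithmetic.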

How the data were processed

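RNA of H1975, OR1 and OR2 was labelled with Cy3 and hybridised to 3 one-colour Agilent arrays on 1 slide. Per the file headers, the deposited scanner intensities came from Agilent Feature Extraction 10.7.1.1 (the labels name 9.5.1.1), which subtracts background and fits an error to each spot. The authors' value table, with linear intensities they normalized by a method not given in the sources used here, served as an alternative. Control and outlier spots were left out (45, 61 and 46 outliers), spots of a probe averaged, and arrays scaled on the 75th percentile. A ratio of a probe well above background on only 1 array was a bound. Calls used the study's limits of 2 and 0.5, on genes well above background on at least 1 of the arrays compared. With 1 array per line no replicate test exists; the number of arrays limits the precision. Ratios and limma (version 3.58.1) were tested on simulated data. Alternatives were other scalings, normexp correction, filters, probe rules and limits.

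The members and gene lists were chosen with earlier results of these data known. The text gives all 3 intensities for every member called in either line and for the brightest of each role, and of each wider list up to 4 genes called alike in both lines, those with the largest change in the less changed line. Genes added beyond this were chosen after their values were seen. RefSeq held 43 of 44 probe accessions, all with the same symbol. Probe positions are those of the files (hg19).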

Additional observations from a re-analysis of the deposited data

How the results depend on the processing

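Counts of called members moved as follows. Under quantile normalization, and with the authors' normalized values, 1 member was down in OR2 and 1 in both lines, and 3 were up in OR2 and 3 in both, with MYC added. With no scaling 1 was down in OR1 against OR2. With spike-in scaling 17 were down in OR1 and 3 in OR1 against OR2. Under normexp 3 were down in OR1, 2 in OR2 and 1 in both. At a ratio of 4, 1 was up in OR1, 1 in OR2 and 1 in both, with 1 down in OR1, 0 in OR2 and 0 in both. At 1.5, 12 were down in OR1, 17 in OR2 and 10 in both, 4 were up in OR2, and 2 were higher and 2 lower in OR1 than in OR2. In limma, with OR1 and OR2 as 2 samples against the lone H1975 array, assumed to vary like them, 1 was up and 0 down (0.928% and 1.66% of all genes), or 3 and 6 at an unadjusted p under 0.05 (9.15% and 9.48%); the spread is that between different lines, so this is no replicate test. Median log2 ratios in OR1 under spike-in scaling were −0.79 for G1, −0.75 for inhibitors, −0.94 for S-phase and −0.93 for mitotic genes; those of OR1 over OR2 were −0.85 for inhibitors and turned to −0.43, −0.34 and −0.37 for G1, S-phase and mitotic genes. With no scaling they were 0.0081 for G1, −0.41 for inhibitors, 0.10 for S-phase and 0.069 for mitotic genes. The inhibitor median turned under normexp to 0.060 in OR1 and −0.11 in OR2. Of 1419 member ratios under alternatives, 1266 stayed within the technical SD, 153 moved, 86 of them under spike-in scaling, and 0 changed sign while called. The size of the CDKN1A decrease depended on the background correction, though its signals were well above background. No paired analysis was possible because each line had 1 array, and for the same reason no replicate could be left out.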
